A study of Papio hamadryas with 17 samples.

Results

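The tubular glucose transporters examined here are 6 genes, SLC5A2 (SGLT2), SLC5A1 (SGLT1), SLC5A10 (SGLT5), SLC2A2 (GLUT2), SLC2A1 (GLUT1) and SLC2A4 (GLUT4). They were chosen by symbol from the name column of the deposited transcript tables, and their transcripts were summed per gene. All 6 were among the 13851 genes of the female table, with 8 transcripts. Of these, 5 genes with 7 transcripts were among the 9819 genes held for both sexes. SLC2A4 was held for females and is not analysed here in males. Of the 6, SLC2A1 carries its symbol in the second part of the name and was matched there.

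The RNA was that of kidney cortex sampled by biopsy with ultrasound guidance from baboons (Papio hamadryas), 8 females with a labelled age of 15 to 19 and 9 males with a labelled age of 6 to 13, 1 library per animal. All animals had been kept on low-salt control chow for life, received no treatment and were biopsied under ketamine and isoflurane, with buprenorphine for pain afterwards, in both sexes alike. The labels give age without a unit, no male was as old as any female, and the library names form 1 series in females and 2 series in males, called A (5 males) and B (4 males). Sex, age and library series therefore cannot be told apart. Values are the authors' scaled read abundance per transcript after subtraction of an offset of 1, called signal.

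Glucose is freely filtered at the glomerulus and is taken back almost wholly by the proximal tubule. In its early segments, S1 and S2, SGLT2 carries glucose with sodium across the brush border and GLUT2 releases it at the basolateral side. In the late segment, S3, SGLT1 takes up what remains with a higher affinity, and GLUT1 is the basolateral transporter usually assigned there. SGLT5 is a kidney-enriched sodium cotransporter of mannose and fructose, and GLUT4 is the insulin-regulated transporter of muscle and fat.

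Female 1, female 2 and male 6 stood apart before any comparison. Summed signal of ACTA1 and CKM, the skeletal muscle markers held in both tables, was 54348 to 111219 in these 3 libraries, against 0.955 to 21.9 in the other 6 females and 2.68 to 19.8 in the other 8 males. Their mean log2(signal + 1) over 16 proximal tubule markers was 1.66, 1.60 and 3.32. In the other libraries it was 3.03 to 7.55 in females and 7.49 to 8.87 in males, and 13 of the 14 lay at 5.97 or above. Female 3, at 3.03, was below male 6 and had SLC5A2 and SLC2A2 at 0, so its proximal tubule content is not borne out by the markers, and results are given with and without it. The comparison of the sexes was made in the other 14 libraries, and the values with all 17 are given beside it. The signal worth 1 read, estimated from the spacing of low values, was 0.0532 to 0.0946 in 13 of the 14 libraries and 0.318 in female 6, the shallowest of them. It was 0.237, 0.316 and 0.293 in the 3 muscle-rich libraries. The signal follows reads and is not scaled to transcript length, so levels are not compared between genes.

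SLC5A2, the early cotransporter, was lower in females, SLC5A1 was lower by a smaller amount, and SLC2A2 was at or near 0 in all 6 females. In the 14 libraries, 3 of the 5 genes tested had an adjusted p under 0.05 with limma, all 3 lower in females. One of them, SLC2A2, passed the filter on low values through the males alone and so had to differ; it is given as a description, and SLC5A2 and SLC5A1 are the called genes among the other 4. Of all 9533 genes, 38.3% were called in either direction and 36.0% lower in females, and the members' count is read against those shares. Across the whole table the log2 difference of females from males had a median of -0.35, which median scaling of the libraries brought to 0.01. The share of called genes that were lower in females was 94.2% as deposited and 53.1% after median scaling, where 15.6% of genes were called lower. In bulk tissue, fewer cells of a type and less RNA per cell cannot be told apart. The proximal tubule list was lower in females too, with 15 of 16 genes called and a median log2 difference of -2.43.

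**Figure D1:**
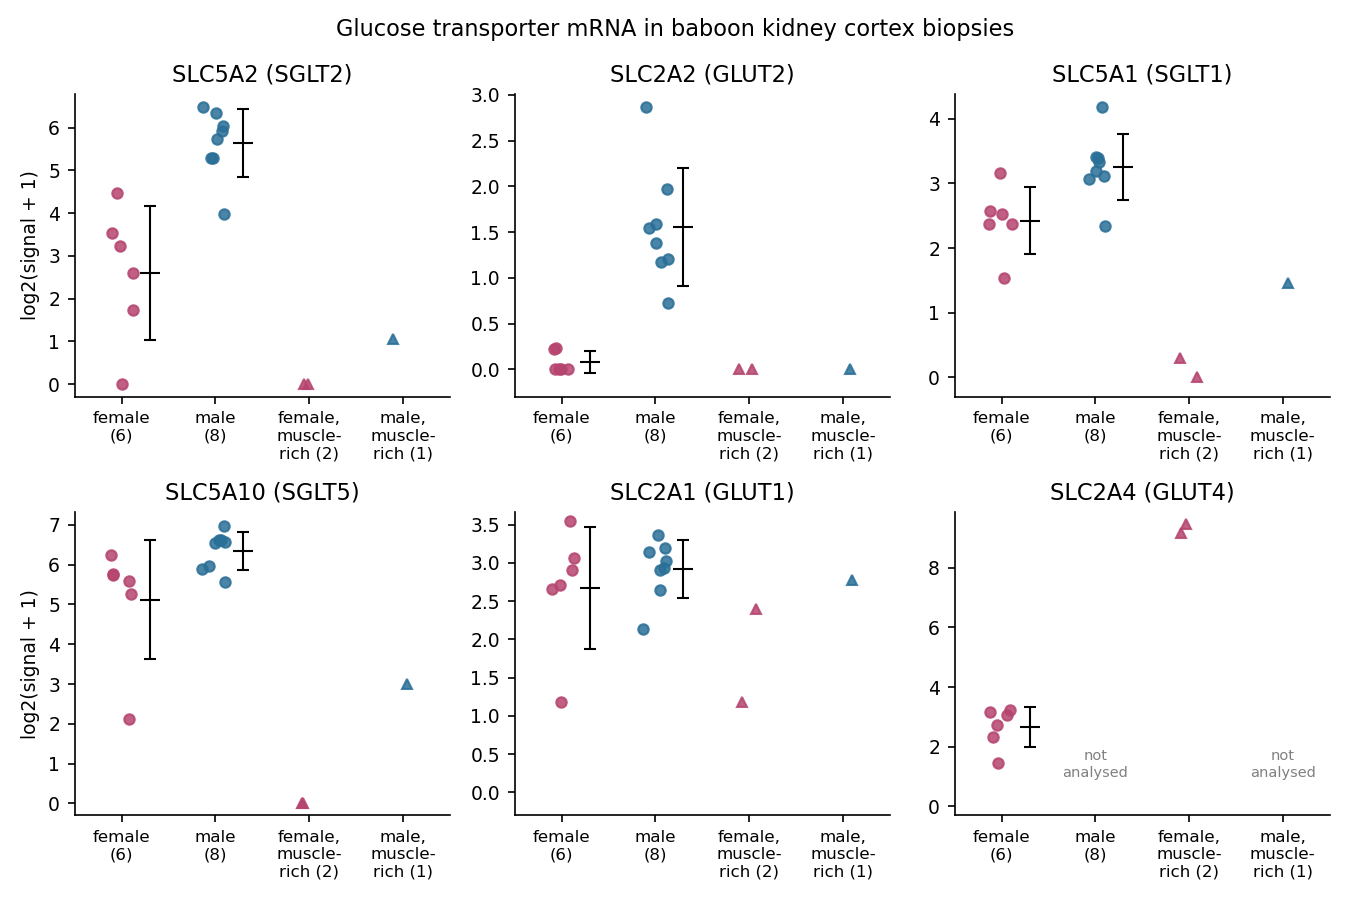
Signal of the 6 genes per library, as log2(signal + 1), for 6 females, 8 males and the muscle-rich libraries (triangles, 2 females and 1 male); black bars give the mean and SD of the females and males. SLC2A2 is the 1 gene whose females and males do not overlap, and SLC2A4, held in females alone, is high in both muscle-rich libraries.

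SLC5A2 (gene31776, NC_018171.2, 27709431 to 27718270, plus strand) encodes the high-capacity cotransporter of the early tubule. Its signal had a lowest value of 0, a median of 6.74 and a highest of 21.0 in the 6 females, and 14.8, 55.9 and 88.1 in the 8 males. Female 7 was the highest female and exceeded male 1, the lowest male, so the groups overlapped by that pair. SLC5A2 was listed at 0 in female 3, where 3 reads would give a signal of 0.169. The means were 7.91 ± 7.51 (SD, n = 6) and 54.5 ± 24.1 (SD, n = 8), and females differed from males by -3.04 on the log2 scale (SE 0.55, limma adjusted p = 0.000608). The difference was -2.64 after median scaling (limma adjusted p = 0.00468) and -2.52 without female 3 (limma adjusted p = 0.000396). With all 17 libraries it was -3.18 (limma adjusted p = 0.0148), and with median scaling of all 17 libraries, a setting chosen after seeing the data, it was -2.87 (limma adjusted p = 0.0532). Against the 5 males of series A it was -2.89 and against the 3 remaining males of series B -3.29 (limma adjusted p = 0.0106 and 0.0112).

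SLC2A2 (gene4531, NC_018153.2, 115255592 to 115286126, plus strand) encodes the low-affinity exit pathway on the basolateral side. Its signal was listed at 0 in 4 of the 6 females and was 0.171 and 0.178 in female 4 and female 7. In the 8 males the lowest was 0.652, the median 1.76 and the highest 6.31, in male 7. No female reached the lowest male. Of all genes tested, 11.8% were lower in every female than in every male and 0.315% higher. The depth of female 6 limits this, since 3 reads there would give 0.953, above the value of male 1 but below the other 7 males. The fitted log2 difference of -1.48 depends on the pseudocount and was -3.79 with 0.1 in place of 1. It is given with no test, since the filter let the gene in through its male values.

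SLC5A1 (gene18678, NC_018161.2, 72990764 to 73061519, plus strand) encodes the high-affinity cotransporter of the late tubule and of the intestine. Its signal was 1.91 at the lowest, 4.47 at the median and 7.90 at the highest in females, and 4.04, 8.63 and 17.1 in males. The groups overlapped, with male 2 below 5 of the 6 females and male 9 the highest of all. The means were 4.65 ± 1.93 (SD, n = 6) and 9.07 ± 3.70 (SD, n = 8). The fitted difference in mean log2(signal + 1) was -0.83 (SE 0.26, limma adjusted p = 0.0187). Without female 3 it was -0.65 (limma adjusted p = 0.0391), and median scaling reduced it to -0.45 (limma adjusted p = 0.188). It did not pass with all 17 libraries (-1.20, limma adjusted p = 0.0751) or against series A alone (-0.63, limma adjusted p = 0.122), and passed against series B (-1.17, limma adjusted p = 0.0235).

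SLC5A10 (gene26991, NC_018167.2, 18320859 to 18393204, plus strand) did not pass in the 14 libraries. Its signal was 3.38, 49.6 and 74.1 in females and 46.7, 93.2 and 124.8 in males, at the lowest, the median and the highest. Female 3 lay far below the other females, the next of which had 37.2, and the other females overlapped the males. The log2 difference was -1.23 (SE 0.49, limma adjusted p = 0.0563). It passed without female 3, at a smaller difference of -0.63 (limma adjusted p = 0.0346), and without female 7 or male 2, at -1.45 and -1.33 (limma adjusted p = 0.0313 and 0.0456). It also passed with a pseudocount of 10, at -0.92 (limma adjusted p = 0.0330), and with a filter minimum of 10, at -1.23 (limma adjusted p = 0.0478). After median scaling the difference was -0.79 (limma adjusted p = 0.254).

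SLC2A1 (gene810, NC_018152.2, 41211165 to 41215360, minus strand) showed no call in any setting tried. The annotation marks its transcript as partial, so the gene may be counted in part. GLUT1 is also the glucose transporter of red cells and of many vessel walls. Its signal was 1.27, 6.02 and 10.7 in females and 3.40, 6.89 and 9.31 in males, at the lowest, the median and the highest, and the male range lay inside the female range. The log2 difference was -0.24 (95% interval -0.86 to 0.38, limma adjusted p = 0.539) and changed sign with median scaling, at 0.12, and without female 6, at 0.06. The erythroid markers HBB, HBA1 and ALAS2 had a summed signal of 40.9 to 355.8 in females and 69.2 to 784.0 in males, and the endothelial list 43.7 to 101.3 and 30.8 to 66.7. The endothelial sums cover the 4 of 6 genes held for both sexes, with PECAM1 and TIE1 in part. The female median of PECAM1 was 2.50 there and 88.2 over all transcripts of the female table, and that of TIE1 4.43 and 20.9. The part of red cells and vessels in the SLC2A1 level was not tested.

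**Figure D2:**
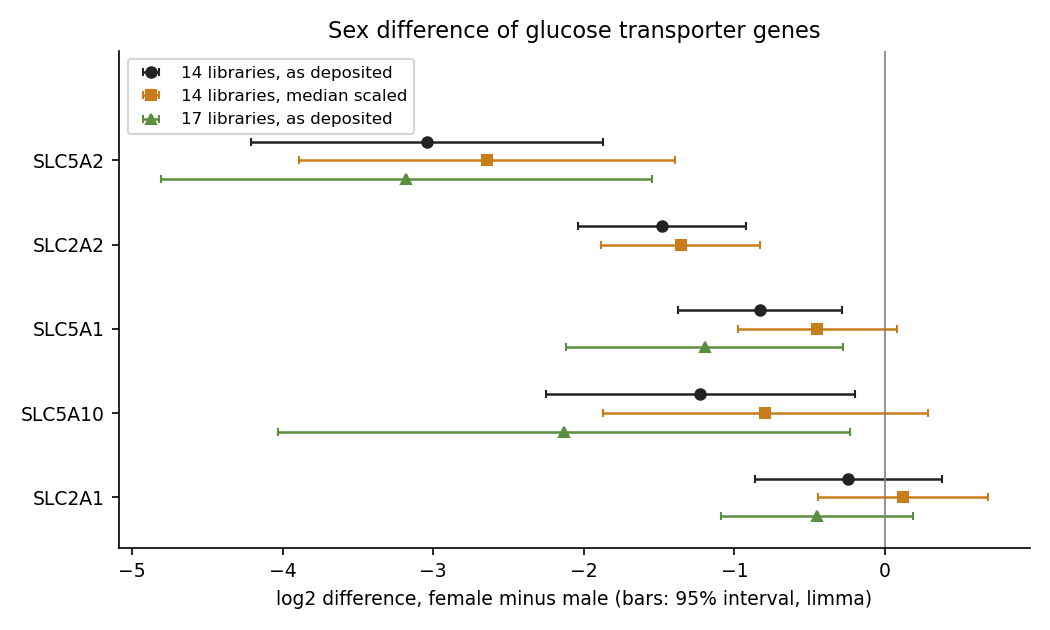
Log2 difference, female minus male, of the 5 genes held in both sexes, with the limma 95% interval, in the 14 libraries as deposited, after median scaling, and in all 17 libraries. The interval of SLC5A2 lies below 0 in each setting; SLC2A2, drawn where it entered the fit, is a description because it did so through the males alone; those of SLC5A1 and SLC5A10 cross 0 after median scaling, and SLC2A1 changes sign.

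When age was added to the limma fit, 0 of the 5 genes passed, none of them with an unadjusted p under 0.05 either, and 0.0105% of all genes did, which is 1 gene. The SLC5A2 difference was then -1.99 (SE 1.65, limma adjusted p = 0.861). That of SLC5A1 turned to 0.07 (SE 0.74, limma adjusted p = 0.989) and that of SLC5A10 to 0.66 (SE 1.37, limma adjusted p = 0.953). Without the age term the SE of these 3 genes was 0.55, 0.26 and 0.49. No male was as old as any female, so this fit cannot separate age from sex. Between the male library series in the 8 males, 0 of the 5 genes and 0% of all genes passed in limma, where 697 of 9576 genes had an unadjusted p under 0.05. The largest of the 5 was SLC5A10, higher in series B by 0.63 (SE 0.24, limma adjusted p = 0.676). Its signal was 46.7 to 94.4 in series A and 96.7 to 124.8 in series B, without overlap, as was the case in this direction for 4.66% of all genes tested.

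The balance of late against early cotransporter was then compared within each library, where gene length cancels and library scale largely does. The log2 ratio of SLC5A1 to SLC5A2 was higher in females, at -0.17 ± 1.11 (SD, n = 6) against -2.38 ± 0.90 (SD, n = 8). Females spanned -1.31 to 1.54 and males -3.41 to -0.65, and male 1 was the 1 male inside the female range. The difference was 2.21 (SE 0.55, two-sided exact permutation test, p = 0.00266, adjusted p = 0.00622 over 7 comparisons of this kind). Against series A alone the difference was 2.26 (adjusted exact p = 0.0404) and against series B alone 2.12 (adjusted exact p = 0.0556). The 3 males of series B did not overlap the females, and the exact p of 0.0238 before adjustment is the smallest that 6 against 3 allows. Without female 3, which holds the highest ratio and has SLC5A2 at 0, the difference was 1.87 (adjusted exact p = 0.0145), and it was 2.77 with a pseudocount of 0.1 and 1.47 with 10. The log2 ratio of SLC2A1 to SLC2A2, the 2 basolateral transporters, averaged 2.60 ± 0.77 in females (SD, n = 6) and 1.36 ± 0.80 in males (SD, n = 8). Since SLC2A2 was at 0 in 4 of the 6 females, the ratio there is SLC2A1 alone and the pseudocount sets its size. The difference was 3.47 with a pseudocount of 0.1, 1.24 with 1 and 0.20 with 10, and it is given as a description with no test.

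Each gene was also set against the mean log2(signal + 1) of the 16 proximal tubule genes of the same library. SLC5A10 was higher in females relative to this list, at -0.86 ± 0.39 (SD, n = 6) against -1.98 ± 0.57 (SD, n = 8), a difference of 1.11 (two-sided exact permutation test, adjusted p = 0.00622). SLC5A1 was higher as well, by 1.51 (adjusted exact p = 0.00622), and SLC2A1 by 2.10 (adjusted exact p = 0.0210). Without female 3 these were 1.12 for SLC5A10 and 1.10 for SLC5A1 (adjusted exact p = 0.0145 for each), and SLC2A1 dropped to 1.33 (adjusted exact p = 0.0490). With all 17 libraries all 3 had an adjusted exact p of 0.0639. Against series A alone the adjusted exact p was 0.0404 for SLC5A10 and SLC5A1 and 0.0909 for SLC2A1, and against series B alone 0.0556, 0.0556 and 0.133. SLC5A2 relative to the list averaged -3.39 ± 0.73 (SD, n = 6) against -2.69 ± 0.41 (SD, n = 8), a difference of -0.70 that did not pass (two-sided exact permutation test, adjusted p = 0.0622). It passed without male 1 (adjusted exact p = 0.0109), whose value of -3.50 was the lowest of the males, and also without female 5 or female 8, after median or upper quartile scaling and with a pseudocount of 0.1. With a pseudocount of 10 the SLC5A2 difference was 0.12. For SLC2A2 the sign depended on the pseudocount, with 0.86 at 1 and -1.34 at 0.1, and no direction is given. The list mean was itself lower in females. Each value here is the gene's level minus that mean, so a gene that was lower by less than the list comes out as higher. In signal, SLC5A10, SLC5A1 and SLC2A1 were not higher in females, with log2 differences of -1.23, -0.83 and -0.24. The exact p-values of these 3 genes therefore measure their distance from the list and not a rise of the gene in females.

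**Figure D3:**
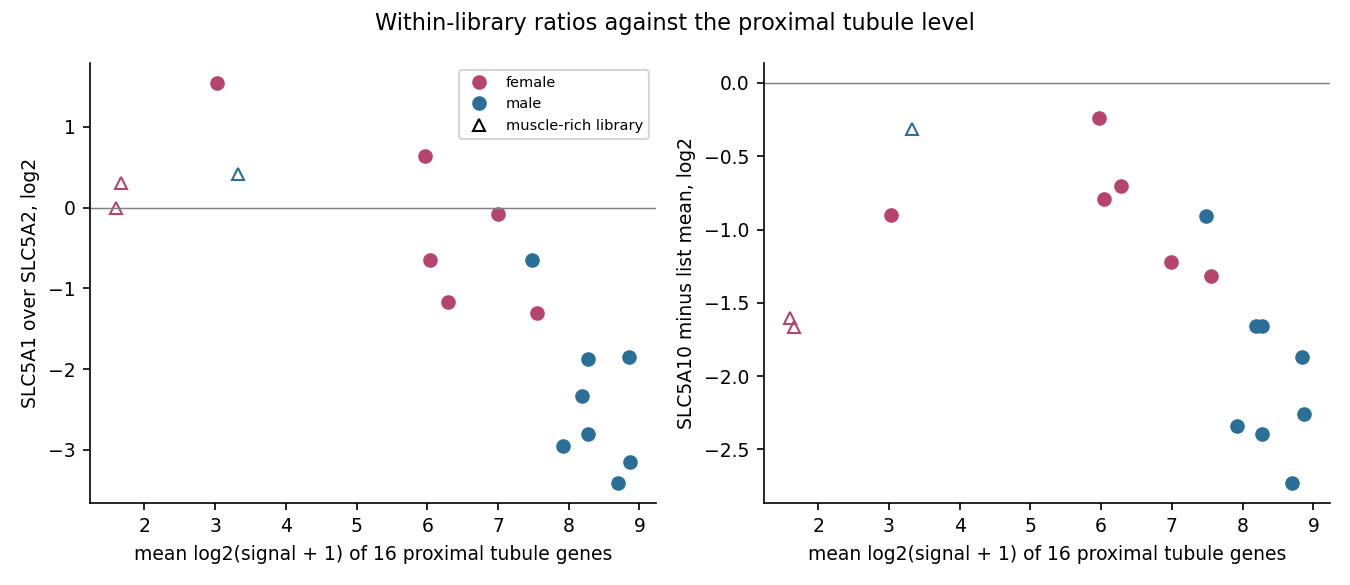
Left, log2 ratio of SLC5A1 to SLC5A2, and right, SLC5A10 minus the mean of 16 proximal tubule genes, each against that mean, per library; triangles are the 3 muscle-rich libraries. Males lie at list means of 7.49 to 8.87 with ratios of SLC5A1 to SLC5A2 below 0, and females spread from 3.03 to 7.55.

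Across libraries the 5 genes did not move as 1 group. SLC5A1 and SLC5A10 went together in the 14 libraries, with a Pearson r of 0.85 (permutation test, adjusted p = 0.000200 over 10 pairs) and a Spearman rho of 0.93 (adjusted p = 0.000200). The underlying p of each was 2.00e-05, the smallest these permutations can give. In the 8 males r was 0.89 (exact permutation test, adjusted p = 0.0193) and rho 0.88 (adjusted p = 0.0724). In the 6 females r was 0.89 (exact permutation test, adjusted p = 0.236) and rho 0.66 (adjusted p = 0.564). Leaving out male 9 and female 3, the libraries farthest from the SLC5A1 median, gave r = 0.87 over the 14, whereas within females the relation rested on female 3 and female 7, with r = -0.51 without them. The male series hold too few libraries for a value each.

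SLC5A2 and SLC5A1, the early and late cotransporters, had r = 0.78 (permutation test, adjusted p = 0.00467) and rho = 0.57 (adjusted p = 0.0860) over the 14 libraries. That relation did not hold within males, where r was 0.10 and rho -0.21 (exact permutation test, adjusted p = 0.916 and 0.774). In females r was 0.92 and rho 0.66 (exact permutation test, adjusted p = 0.236 and 0.564), and r was 0.26 without female 3 and female 7. Over the 14 libraries it was 0.57 without female 3 and female 4. For SLC5A2 and SLC2A2 no pooled value is given because the sexes do not overlap in SLC2A2. In the 8 males r was 0.62 and rho 0.64 (exact permutation test, adjusted p = 0.281 and 0.383), and r was 0.51 without male 1 and male 4. SLC2A1 had no relation that passed with any of the other 4 genes, over the 14 libraries or within a sex.

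**Figure D4:**
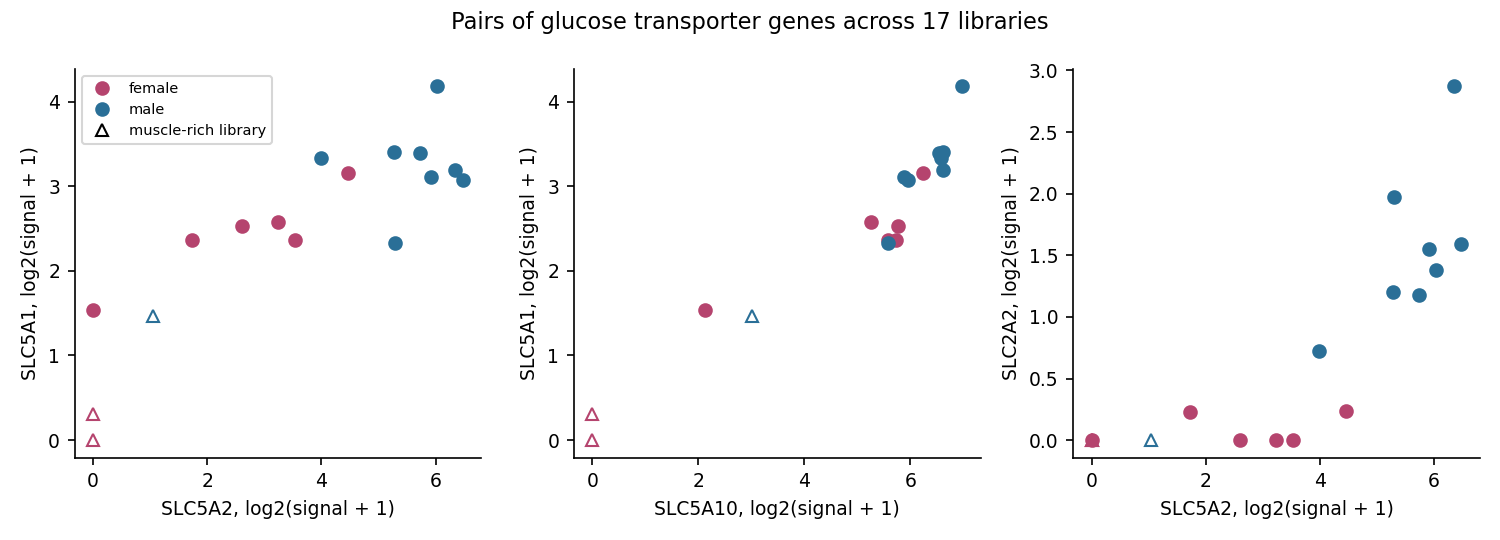
Pairs of genes across libraries as log2(signal + 1), females and males in different colours and the 3 muscle-rich libraries as open triangles. SLC5A1 rises with SLC5A10 in both sexes (r = 0.89 in each, resting on female 3 and female 7 in females), SLC5A1 is flat against SLC5A2 in males (r = 0.10), and SLC2A2 is near 0 in all females.

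As a description, the mean of the proximal tubule list in the same libraries had a Pearson correlation of 0.91 with SLC5A2 in the 8 males and 0.89 in the 6 females. For SLC5A1 the values were 0.39 and 0.94, for SLC5A10 0.27 and 0.97, and for SLC2A1 0.21 and -0.60. In females these values share the low proximal tubule level of female 3.

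The genes whose pattern was most like each transporter were named by Pearson correlation of log2(signal + 1), centred within sex, over the 14 libraries and 9532 other genes. Female 3 was kept in, with SLC5A2 at 0 and SLC5A10 at 2.13 on this scale, where the next female had 5.25. How far the correlations rest on the low proximal tubule level of that library was not tested. For SLC5A2 they were SLC12A3, the thiazide-sensitive sodium chloride cotransporter of the distal convoluted tubule (r = 0.95), SALL3 (r = 0.95) and CA12, a membrane-bound carbonic anhydrase (r = 0.95). For SLC5A10 they were SLC6A18, an amino acid transporter (r = 0.97), CDHR5, a cadherin of the brush border (r = 0.96), and PIPOX, a peroxisomal oxidase (r = 0.95). For SLC5A1 they were FZD5, a Wnt receptor (r = 0.90), SLC15A2, a peptide transporter (r = 0.86), and PNMA3 (r = 0.86). SLC2A1 was closest to ATP2C1, KAT7 and CSTF2T (r = 0.98 each), and genes close to SLC2A2 included CDKN3 and KCTD20 (r = 0.91 and 0.89). Among the transporters themselves, SLC5A10 ranked 53 of 9532 for SLC5A1 (r = 0.78), and SLC2A2 ranked 1609 for SLC5A2 (r = 0.35).

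SLC5A2 and SLC5A10 each have 2 annotated transcripts, variants X1 and X2, which differ by 4 bases in their annotated start and share their end. The share of SLC5A2 signal in X1 varied widely, 10.1% to 75.4% in the 5 females with signal and 23.6% to 90.6% in the 8 males. X1 held the larger part in 3 of those 5 females and in 6 of the 8 males. In male 7 the signal was 72.8 for X1 and 7.55 for X2, and in male 4 it was 20.8 and 67.4, so the libraries with the highest SLC5A2 had opposite leading variants. SLC5A10 was steadier, with X2 the larger in all 14 libraries and an X1 share of 19.7% to 35.6% in females and 16.4% to 40.1% in males. How reads were divided between variants is not given in the sources used here. Tested singly, both SLC5A2 variants passed, X1 at -2.90 and X2 at -2.50 (limma adjusted p = 0.00156 and 0.00255), and neither SLC5A10 variant did.

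**Figure D5:**
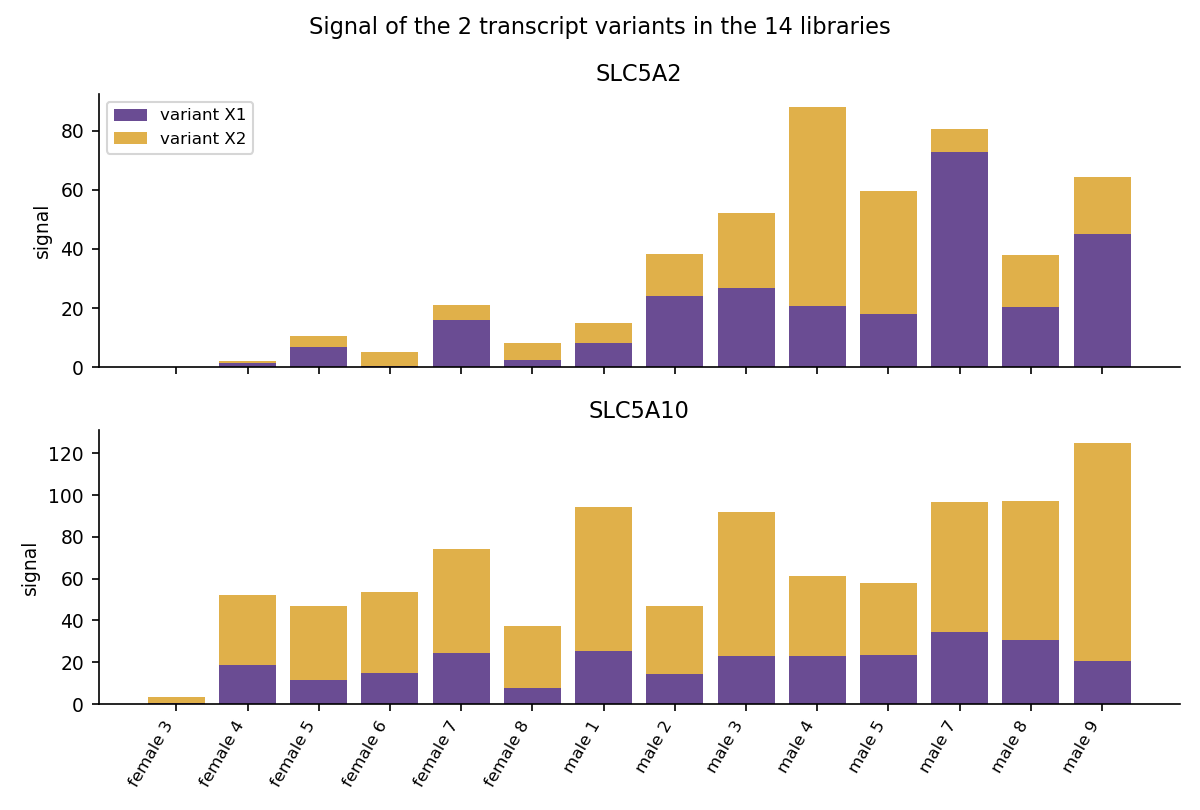
Stacked signal of transcript variants X1 and X2 of SLC5A2 (top) and SLC5A10 (bottom) in 6 females and 8 males. For SLC5A2 the leading variant changes from library to library (X1 share 10.1% to 90.6%), while X2 is the larger for SLC5A10 in every library.

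In the authors' deposited table of females, the SLC2A2 transcript and SLC5A2 variant X1 were placed in the same co-expression module, darkturquoise, with 677 transcripts. In the authors' deposited table of males these 2 transcripts were again together, in magenta, with 915 transcripts in the part held. The females' table put SLC5A1, both SLC5A10 variants and SLC5A2 variant X2 in the module pink, with 1064 transcripts. The deposited table of males split these over blue (SLC5A1 and SLC5A10 variant X1), purple (SLC5A10 variant X2) and black (SLC5A2 variant X2). SLC2A1 was in tan and brown, and SLC2A4 in blue of the deposited female table, its largest module with 11110 transcripts. Colours are not comparable between the tables, and the muscle-rich libraries are columns of both.

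Other genes of glucose handling were followed in the same fit of 14 libraries. Of the SLC5 family outside the 3 members, 6 of 9 genes were tested and 3 were lower in females. They were SLC5A12, a lactate cotransporter (log2 difference -2.44, limma adjusted p = 0.00480), SLC5A11, a myo-inositol cotransporter (-1.02, limma adjusted p = 0.0264), and SLC5A8 (-0.95, limma adjusted p = 0.0443). After median scaling 1 of them, SLC5A12, passed. Of the GLUT family outside the members, 6 of 11 were tested and 3 were lower in females. SLC2A5, the fructose transporter GLUT5, had 3.15 to 39.2 in females and 21.7 to 75.2 in males (-1.50, limma adjusted p = 0.00795), and SLC2A13 and SLC2A11 had differences of -1.01 and -0.69 (limma adjusted p = 0.00375 and 0.0223). After median scaling 1, SLC2A13, passed. The medians of these lists, -0.98 and -0.49, compare with -0.35 over all genes. Of all genes tested, 36.0% were called lower in females, and 15.6% after median scaling. The counts of 3 of 6 are therefore not read as a result about these families.

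Partners and regulators of the transporters had a median of -1.36, and 4 of the 7 tested were lower in females with and without median scaling. Among them HNF4A, a transcription factor of the proximal tubule, had a difference of -1.82 (limma adjusted p = 0.00646). PDZK1 and SLC9A3R1, scaffold proteins of the brush border, had -1.50 and -1.36 (limma adjusted p = 0.00128 and 0.000515). PDZK1IP1, the accessory subunit of SGLT2 also called MAP17, did not pass, at -1.06 (limma adjusted p = 0.0869). The count of 4 of 7 stands beside 36.0% of all genes called lower in females, and 15.6% after median scaling.

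Of the sodium pump subunits that maintain the gradient, ATP1B1 was lower in females (-0.89, limma adjusted p = 0.00341). Among the 6 tested genes that phosphorylate or release glucose, SLC37A4, the glucose 6-phosphate carrier, was the 1 called (-1.23, limma adjusted p = 0.00352), and G6PC had -1.47 (limma adjusted p = 0.0735). After median scaling neither passed, and HK1 and G6PC3 were higher in females by 0.54 and 0.47 (limma adjusted p = 0.00618 and 0.00970). As deposited, 36.0% of all genes tested were called lower in females. With median scaling, 1309 of 9506 genes were called higher. The calls among these genes are therefore not read as a result about glucose phosphorylation or release.

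Segment marker lists gave the context of the tubule. All 7 genes of the S1/S2 list were lower in females, with a median log2 difference of -3.06, close in size to the -3.04 of SLC5A2. Of the 3 tested genes of the S3 list 2 were lower, with a median of -1.46. The S3 genes were SLC7A13 (-2.46, limma adjusted p = 0.00685), SLC3A1 (-1.46, limma adjusted p = 0.0309) and SLC6A18, which did not pass (limma adjusted p = 0.148). Whether the lists differed from each other was not tested. After median scaling 5 of 7 and 1 of 3 passed, the latter being SLC7A13. Over all genes tested, the share called lower in females was 36.0%, and 15.6% after median scaling. The S1/S2 genes were assigned to the early tubule when the list was drawn up, and whether they are confined to it was not tested. Their differences ran from -1.55 (SLC34A1) to -3.24 (SLC13A3), and 6 of the 7 are also in the proximal tubule list of 16. The summed signal of 8 collecting duct genes was 217.8 to 1066 in females and 576.0 to 923.0 in males, and that of 5 thick ascending limb genes 1829 to 11538 and 2859 to 10242.

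SLC2A4 (gene26757, NC_018167.2, 6971364 to 6977908, plus strand) belonged to the muscle-rich libraries. Its signal was 574.6 in female 1 and 708.3 in female 2, and between 1.77 and 8.45 with a median of 6.54 in the other 6 females. The lower of the muscle-rich values was 68.0 times the highest of the others. These libraries were set apart by muscle genes, so the values are a description with no test, and 44.6% of all genes of the female table were higher in both than in each of the other 6. All 11 skeletal muscle markers of that table shared the pattern, and so did all 7 adipocyte markers, with a summed signal of 926.0 and 1028 against 10.5 to 34.9. ADIPOQ, specific to fat cells, was 15.3 and 46.9 against at most 0.0455. The part of fat in the SLC2A4 value was not tested.

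Of the 12 genes of GLUT4 vesicle traffic and its insulin signal, 10 were higher in both muscle-rich females than in the other 6. The share over all genes of the female table was 44.6%. IRS1, the insulin receptor substrate, was 97.7 and 95.9 against 3.82 to 9.78, and RAB10, a GTPase of GLUT4 vesicles, was 174.6 and 158.7 against 15.6 to 25.0. In the comparison of the sexes 6 of these 12 were tested and 3 were lower in females, SNAP23, a fusion protein of vesicles (-1.50, limma adjusted p = 0.00120), IRS1 (-0.74, limma adjusted p = 0.00395) and INSR (-0.53, limma adjusted p = 0.0424), of which SNAP23 alone passed after median scaling. Over all genes tested between the sexes, 36.0% were called lower in females, and 15.6% after median scaling. In the muscle-rich females INSR, the insulin receptor, was 8.28 and 8.83 inside the range of 6.80 to 15.0, and TBC1D1 was 39.6 and 26.5 inside 23.3 to 42.0. The tubular transporters were low in the same libraries. SLC5A2, SLC2A2 and SLC5A10 were listed at 0 in female 1 and female 2, where 3 reads would give 0.71 and 0.947. SLC5A1 was 0.237 and 0. Of all genes, 18.2% were lower in both than in each of the other 6 females, as were SLC5A1 and SLC5A10 among the 6 transporters. In male 6 SLC5A2 was 1.06, SLC5A1 1.76, SLC5A10 7.04 and SLC2A2 0. SLC2A1 was 4.26, 1.26 and 5.87 in female 1, female 2 and male 6, of which female 2 alone lay below the range of 1.27 to 10.7 in the other 14 libraries.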

How the data were processed

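RNA of kidney cortex biopsies was sequenced from stranded mRNA libraries, per the labels' protocols. Females and males have separate tables, in which the authors deposited a signal for every transcript. Partek is named in the submitters' processing notes, while aligner, scaling and genome build are each not given in the sources used. Values start at 1. The male table was held to row 17119 and ends inside the next row. All 17119 transcripts were joined to the female table by identifier, and 1 was subtracted. For 2263 genes the part held covers some of the transcripts. SLC2A5, SLC37A4 and SNAP23 are among them, so their sex differences are those of part of the gene. Their female medians were 17.4, 42.9 and 7.17 there and 21.8, 51.2 and 9.80 over all transcripts of the female table.

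Genes reaching a signal of 1 in 6 or more of the 14 libraries (8 or more of 17) were tested with limma 3.58.1 in R 4.3.3 on log2(signal + 1), which understates changes of low genes, with a mean-variance trend, and p adjusted by Benjamini-Hochberg over all genes. Low values were whole multiples of 1 read, within 0.1 of a read, in 57.1% to 73.5% of cases per library, so no count test was run and read numbers are estimates covering counting error only. Ratios were tested by exact permutation over animals, and correlations by 100000 permutations or, within a sex, exactly (scipy 1.17.1, Python 3.11.15).

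The members, gene lists, tests and the 14 libraries were chosen with earlier results of these data known. The genes named are the members, up to 4 called genes per list by smallest p, the members of a counted list of 5 or fewer, and the 3 genes most like each member; some genes that this rule takes are not reported here. PDZK1IP1, G6PC, HK1, G6PC3 and the genes of the muscle-rich libraries were named after their values were seen. The correlation of SLC5A2 with SLC2A2 was planned over 14 libraries and is given in males because the sexes do not overlap in SLC2A2. The planned tests of SLC2A2 by sex and of its ratio to SLC2A1 were run, but these values are given as a description, since the gene passed the filter through the males alone. Alternatives were other scalings, pseudocounts, filters, library sets, age as a term and leaving out each library.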

Additional observations from a re-analysis of the deposited data

Results flagged for a closer look

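For each transporter and ratio, the gap from the extreme library of a sex to its nearest neighbour was measured, in 25 sets of values that share libraries. The gap was past the 95% limit of Dixon's test in 4 sets, and chance alone passes that limit in about 5% of them. Female 3 was the lowest female for SLC5A10, at 2.13 on the log2(signal + 1) scale with the next at 5.25. Relative to the proximal tubule list, female 3 was the highest female for SLC5A1, at -1.49 with the next at -3.47, and for SLC2A2, at -3.03 with the next at -5.75; SLC2A2 was listed at 0 in that library, so the value is the list mean with its sign turned. Male 1 was the highest male for SLC2A1 relative to the list, at -4.12 with the next at -5.28. Female 3 also had the lowest proximal tubule list mean of the 14 libraries (3.03) and male 1 the lowest of the 8 males (7.49).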

How the results depend on the processing

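The number of the 5 genes called by sex was 3 in the 14 libraries, with SLC2A2 among them. It was 1 of 4 tested with all 17 libraries and 1 of 4 against series A alone. With median scaling of all 17 libraries, a setting chosen after seeing the data, it was 0 of 4. SLC2A2 did not pass the filter on low values in these settings, so part of the drop is a gene not tested. The number was 0 of 5 with age as a term, and 3 to 4 when 1 library was left out. Genes called over the whole table numbered 3648 and became 1276 with all 17 libraries, 1917 against series A alone, 2226 with a filter minimum of 10, where fewer genes were tested, 1 with age as a term, 352 with median scaling of all 17, and 3095 to 4021 with 1 library left out. The SLC5A1 difference turned positive with age as a term, at 0.0734 (limma adjusted p = 0.989), as did that of SLC5A10, at 0.66 (limma adjusted p = 0.953). The cause of these changes was not tested. The SLC5A1 to SLC5A2 ratio kept its direction in every setting, with 1.47 at a pseudocount of 10, 2.77 at 0.1 and 1.87 to 2.46 with 1 library left out. Against series B alone it was 2.12, where groups of 6 and 3 cannot give an exact p under 0.0238 before adjustment. The SLC2A1 to SLC2A2 ratio, given as a description with no test, differed by 3.47 with a pseudocount of 0.1 and by 0.20 with 10. Its difference was 0.88 with all 17 libraries, 1.13 against series A alone and 1.42 against series B alone. With 1 library left out it ranged from 1.05 to 1.52. The correlation of SLC5A2 with SLC2A2 in males was 0.79 with male 6 included and 0.38 to 0.70 with 1 male left out, with an unadjusted exact p under 0.05 with male 6, without male 2 and without male 4; within series A or B too few males remained. The correlation of SLC5A2 with SLC5A1 over both sexes together had an unadjusted permutation p under 0.05 in every setting tried. It ranged from 0.64 to 0.85 with 1 library left out. Each of these settings pools the sexes, whose levels differ in both genes. Within a sex it was 0.10 in males and 0.92 in females (exact permutation test, adjusted p = 0.916 and 0.236). No member was called between the male series in any setting. No paired analysis was possible because the labels give no replicate numbers and each animal gave 1 library.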

Other observations

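Hexokinases and the fructose transporter also differed in level between the muscle-rich and the other females. HK1, the hexokinase of most tissues, had a signal of 228.1 and 230.0 in female 1 and female 2 against 20.0 to 46.3 in the other 6, and HK2, the insulin-responsive hexokinase of muscle, had 8.99 and 7.26 against 0.522 to 1.61. SLC2A5, counted over all transcripts of the female table, was 57.3 and 87.1 against 3.94 to 49.0, so both muscle-rich females were above the others for this gene although their proximal tubule list was lowest. SLC2A11 and SLC2A12 went the other way, at 0.937 and 1.85 against 7.19 to 18.7 and at 0.721 and 1.65 against 2.36 to 11.1. These are values of 2 libraries with no test, and the genes were chosen after their values were seen.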
